A study of Mus musculus with 8 samples.

Results

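Nuclei that the authors annotated as muscle were a small class of the cultured mouse pancreatic islet, here taken as the 6 columns of the deposited expression table that carry this annotation, out of 54 columns in all. The 54 columns are 6 conditions by 9 annotated cell types, and each column pools all nuclei of 1 type in 1 condition. Islets came from wild type (WT) mice or from mice with the Med14 S983A knock-in in the whole body, a change of a serine to alanine in Med14, the scaffold subunit of the Mediator complex. Islets of each genotype were cultured untreated (CON), with forskolin (FSK), which switches on adenylyl cyclase directly and so raises cAMP, or with Exendin-4 (Ex-4) at 10 nM for 16 h, an agonist of the GLP-1 receptor. FSK also lasted 16 h, and the sources used here do not give its dose in islets. Islets were picked by hand. The sources used here give neither the number of animals behind each condition nor their age, and do not say if islets of different animals were pooled. With 1 column for each condition there are no replicates, so no difference below was tested, the intervals cover counting error only, and condition cannot be told apart from islet preparation or barcode well.

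Islets are threaded by capillaries and fed by arterioles, and both are wrapped by mural cells. Smooth muscle cells of arterioles contract through myosin, actin and caldesmon, pericytes sit on capillaries within the basement membrane and carry the platelet-derived growth factor receptor Pdgfrb, and stellate cells and fibroblasts deposit collagen. In smooth muscle, cAMP and cGMP favour relaxation, and phosphodiesterases remove both messengers. A class annotated as muscle from an islet could in principle hold any of these cells, so their genes were examined first.

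The muscle columns held 25695 counts in WT CON, 35258 in WT Ex-4, 48362 in WT FSK, 61537 in mutant CON, 87008 in mutant FSK and 49485 in mutant Ex-4. Together these were 307345 of 23616371 counts, or 1.30% of the table. WT CON was thus the shallowest muscle column, where 1 count was worth 0.389 counts per 10000 (CP10K, the unit of all levels below), against 0.115 in mutant FSK. Rarely counted genes were listed at 0 in all 9 cell types of some conditions, from 387 genes in mutant FSK to 5918 in mutant Ex-4, and 11278 of 17362 genes were listed in all 6 conditions. A gene at 0 throughout a condition was read as not measured there, is said below to be listed at 0, and is given no fold.

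The muscle share of all counts was 0.633% (exact 95% interval 0.626 to 0.641) in WT CON, 0.868% (0.859 to 0.877) in WT Ex-4 and 1.21% (1.20 to 1.22) in WT FSK. It was 1.64% (1.63 to 1.66) in mutant CON, 1.35% (1.34 to 1.37) in mutant Ex-4 and 2.13% (2.12 to 2.14) in mutant FSK. All mutant shares were above all WT shares, and no neighbouring pair in this order had overlapping counting intervals. Fewer nuclei of a type and less RNA per nucleus cannot be told apart in these pooled columns, and numbers of nuclei were not analysed here.

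The mural markers given for this class were listed in only part of the conditions or were not analysed. Pdgfrb, the receptor that defines pericytes and other mural cells, was listed at 0 in the 3 WT conditions and stood at 17.7 CP10K (109 counts) in mutant CON, 8.96 (78 counts) in mutant FSK and 12.1 (60 counts) in mutant Ex-4. Where it was listed, it was at most 0.0209 CP10K in beta nuclei. Myh11, the smooth muscle myosin heavy chain, was at 6.23 in WT CON, 6.52 in WT Ex-4, 3.52 in WT FSK, 1.46 in mutant CON and 1.26 in mutant FSK, and was listed at 0 in mutant Ex-4. Myh11 thus rested on 9 to 23 counts a column. Rgs5, a pericyte regulator of G protein signalling, had 17 counts in all, every one in mutant FSK, at 1.95 CP10K, and was listed at 0 in the other 5 conditions. Acta2, the smooth muscle actin, was not analysed here. Of the skeletal and cardiac muscle list only Ttn and Neb were analysed, with 6 counts between them over all muscle columns.

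Of 912 genes with at least 60 counts over the 6 muscle columns, 282 had their highest mean in muscle, and 38 had a muscle mean at least 4 times the mean of every other cell type. For 22 of the 38 the next cell type was the column annotated as neurons, whose 6 totals ran from 4044 to 58294 counts, and for 5 it was endothelial. Because the annotation was made from clusters of these same nuclei, these ratios are a description of the class and carry no test. Of the 38 genes, 22 were listed in all 6 conditions and 20 had a count in every muscle column.

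The gene furthest above the rest was Trpc6 (chr9:8492905-8682359 in GRCm39, plus strand, protein coding), a receptor-operated cation channel of vascular smooth muscle. Its mean was 7.14 CP10K in muscle and 0.0465 in neurons, a ratio of 153, with 24.5 in WT CON, 6.99 in mutant CON, 4.25 in mutant FSK and 7.07 in mutant Ex-4, and it was listed at 0 in WT FSK and WT Ex-4. Ednra (chr8:78386590-78451552, minus strand), the endothelin receptor through which smooth muscle contracts, ranged from 3.84 to 13.0 over all 6 conditions, with a ratio of 23.8. Pde3a (chr6:141194888-141453174, plus strand), a cAMP phosphodiesterase of smooth muscle, ranged from 9.09 to 46.7, with a ratio of 23.4. Gucy1b1 and Gucy1a1, the paired subunits of the soluble guanylyl cyclase that senses nitric oxide, had ratios of 14.5 and 14.0, and Pde1a, a calmodulin-dependent phosphodiesterase, had 12.7. The leading genes thus included a contraction receptor and enzymes that make and degrade cyclic nucleotides.

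The other leading genes were of secreted, matrix and regulatory proteins. Igfbp5 (chr1:72897091-72914043, minus strand), a binding protein of insulin-like growth factors, had 2634 counts, ranged from 19.4 to 208 CP10K and had a ratio of 37.5. Dlc1 (chr8:37034901-37420297, minus strand), a GTPase-activating protein, had 1751 counts, ranged from 25.7 to 148 and had a ratio of 13.8. Il11, a cytokine of stromal cells, had a ratio of 85.6 but no count in WT CON and 24 and 63 counts in WT FSK and mutant FSK. The collagens Col3a1 (ratio 31.9) and Col5a3 (17.8), the matrix protein Tnc, the adaptor Stac (36.2) and the mesenchymal transcription factor Prrx1 (28.6) were listed only in mutant CON and mutant FSK, so they are given no fold against the WT columns. Tbx3os1 (73.3), Ddr2, a collagen receptor (20.3), Pakap.1 (13.1), Rdh10, a retinol dehydrogenase (11.8), and Stk38l, a kinase (10.6), completed the 20 genes with the largest ratios besides Pdgfrb (20.6). Tbx3os1 is a long noncoding RNA on the minus strand of chromosome 5 that overlaps Tbx3, and reads of overlapping genes may not have been separable in the authors' counting.

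**Figure D1:**
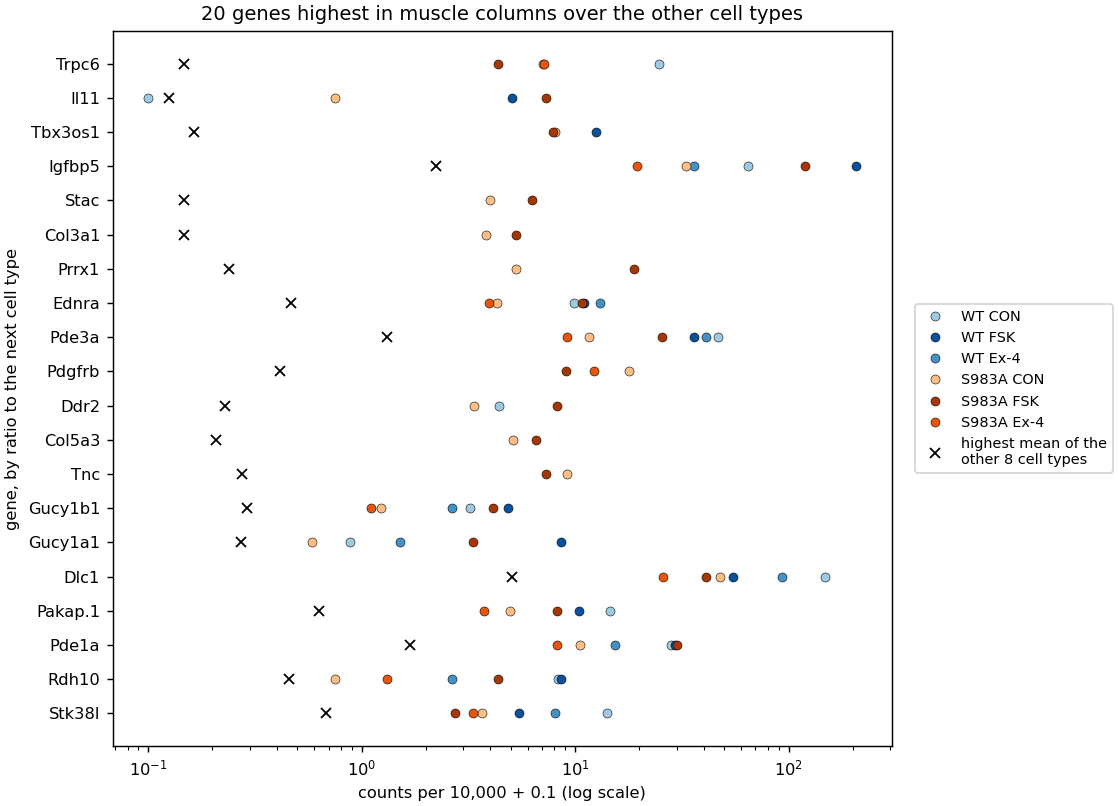
Level of the 20 genes with the largest ratio of the muscle mean to the highest mean among the other 8 cell types, in counts per 10000 plus 0.1 on a log axis; each point is 1 muscle column and each cross the highest mean of another type. A condition in which every cell type of that gene was at 0 has no point. All points lie to the right of the cross except Il11 in WT CON, which had no count.

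Because serum response factor and its coactivators drive smooth muscle genes through the CArG box, the promoter windows of RefSeq (GRCm38.p6, 250 bases before to 50 after each start) were searched for it on both strands. It was in at least 1 window of 1.81% of 27025 genes. Of the 38 genes above, 28 had a window and 1 of these, Trpc6, held the motif, which is 3.57% of them. The 250 bases before the Trpc6 start are shown, since this gene leads the class, with the CArG box in capitals, beginning 122 bases before the start (chr9:8543892-8544141 in GRCm38.p6, plus strand). This is a RefSeq start and need not be the start of the GRCm39 span given above. The match is a description of the letters only.
Trpc6: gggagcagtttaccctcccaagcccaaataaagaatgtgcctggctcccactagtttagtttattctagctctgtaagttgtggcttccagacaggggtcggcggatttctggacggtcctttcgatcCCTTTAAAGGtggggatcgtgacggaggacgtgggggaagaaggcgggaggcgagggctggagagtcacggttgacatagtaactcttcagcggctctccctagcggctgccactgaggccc

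Lists of marker genes described the class further. Of the smooth muscle contractile list, 6 members had a count and 5 of them (83.3%) had their highest mean in muscle, against 9.81% of all genes with a count. These were Cald1 (caldesmon), Tpm1 (tropomyosin), Mylk (myosin light chain kinase), Smtn (smoothelin) and Myh11, while Synpo2 had 4 counts and Tagln was listed at 0. Cald1 (chr6:34575435-34752408, plus strand) was the best counted, with WT levels of 55.3 CP10K in CON, 49.9 in Ex-4 and 47.1 in FSK, and 29.6 in mutant CON, 41.4 in mutant FSK and 19.6 in mutant Ex-4, all above the 0.0776 to 0.223 of beta nuclei. Of the pericyte list, 8 of 11 members with a count (72.7%) were highest in muscle: Pdgfrb, Rgs5, Cspg4 (the NG2 proteoglycan), Abcc9 (a subunit of the pericyte potassium channel), Notch3, Gucy1a1, Gucy1b1 and Ebf1. The summed level of the contractile list was 26.7 to 77.8 CP10K in the muscle columns and at most 10.2 as a mean in another type. That of the pericyte list was 31.7 to 86.4 against 12.6 in endothelial columns. Members listed at 0 in a condition added nothing to its summed list level, among them Pdgfrb in the WT conditions and Myh11 in mutant Ex-4.

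The fibroblast and stellate lists were weaker. Of the fibroblast list, 5 of 10 members with a count (50%) were highest in muscle, all matrix genes: Col1a1, Col1a2, Col3a1, Col5a2 and Fbn1 (fibrillin). Fbn1 was listed throughout, at 3.84 to 8.73 CP10K, whereas the cell identity genes Pdgfra and Dcn were not analysed here and Cd34 had no muscle count. Of the stellate list, 2 of 5 (40%) were highest in muscle, Nes and Vim, with 96 counts for the whole list over the 6 columns, and the stellate genes Lrat and Gfap were not analysed here. Of the basement membrane and anchoring list, 1 of 12 (8.33%), Col6a3, was highest in muscle, and its summed level of 34.4 to 97.7 stood beside 87.8 in endothelial columns. That count ran from 0 without WT CON to 3 without mutant CON, and was 2 without any 1 of the other 4 columns and 3 on summed counts, and the stellate count was 1 without WT CON, mutant CON or mutant Ex-4. Of the genes of mural signalling 8 of 19 (42.1%), among them Jag1, Heyl, Ednra and Ednrb, and of those that set contraction 5 of 13 (38.5%), Cacna1c, Rock2, Ppp1r12a, Prkg1 and Pde3a, were highest in muscle.

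**Figure D2:**
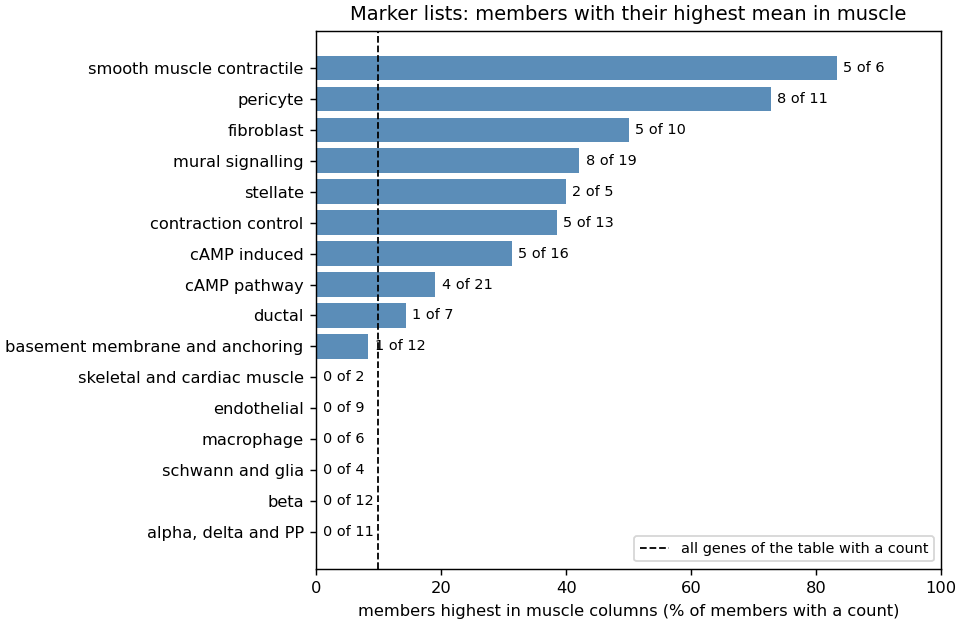
Share of the members of each marker list whose highest mean among the 9 cell types was in muscle, in percent of members with a count in any column; the figures beside the bars are members, and the dashed line is the 9.81% of all genes. The contractile and pericyte lists stand highest, and of the lists of other cell types only the ductal list, through Sox9, is above 0.

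Markers of other cell types were low. The endothelial list had 17 counts over the 6 muscle columns, 0.115 to 1.41 CP10K against 126.5 in endothelial columns, and none of its 9 members was highest in muscle. The macrophage list had 0 counts, the glial list 15, the ductal list 20, the acinar list 1 and the mesothelial list 2. Sox9 of the ductal list was highest in muscle, on 4 counts. Endocrine RNA was present in every column at an uneven level. The summed beta list had WT levels of 6.62 CP10K in CON, 2.55 in Ex-4 and 8.48 in FSK, and 10.9 in mutant CON, 5.75 in mutant FSK and 13.1 in mutant Ex-4, which is 4.21% (WT Ex-4) to 23.9% (mutant Ex-4) of its level in beta nuclei of the same condition. The alpha, delta and PP list had no count in WT CON and WT Ex-4 and ran from 1.65 to 5.25 in the other 4 columns. Genes of endocrine nuclei that differ between muscle columns are therefore given with these levels beside them, and their part in such differences was not tested.

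Med14 itself was at 3.11 CP10K (8 counts) in WT CON, 2.27 (8) in WT Ex-4, 6.0 (29) in WT FSK, 0.975 (6) in mutant CON, 3.10 (27) in mutant FSK and 2.42 (12) in mutant Ex-4. The mutant CON level was 0.313 of that of WT CON, with a counting interval of the ratio from 0.0896 to 1.03. The knock-in changes 1 residue and need not alter the mRNA level, so this does not check the labels.

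To ask which genes of the muscle nuclei differed with treatment and genotype, the 500 genes with the most counts over the 6 muscle columns were compared, 253 of which were also at least 2 times higher on average in muscle than in beta, alpha and delta nuclei and are called muscle-enriched here. Endothelial nuclei did not enter that choice, so the muscle-enriched genes include some with more RNA there, such as Adamts9, a secreted metalloprotease, with 31.9 CP10K in endothelial and 10.5 in muscle nuclei of WT CON, and they include the mitochondrial ribosomal RNAs mt-Rnr1 and mt-Rnr2. These 500 had a median of 146 counts over the 6 columns. A gene was called where the ratio of CP10K was at least 2 in either direction, and no ratio was formed where both counts were 3 or fewer. In WT, FSK against CON called 81 of 497 genes higher (16.3%) and 61 lower (12.3%). In the mutant, FSK against CON called 124 of 500 higher (24.8%) and 51 lower (10.2%). Ex-4 against CON called 34 of 490 higher (6.94%) and 53 lower (10.8%) in WT, and 12 of 498 higher (2.41%) and 52 lower (10.4%) in the mutant. Mutant CON against WT CON called 57 of 498 higher (11.4%) and 151 lower (30.3%).

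Some of these calls came from genes at 0 throughout a condition. Leaving those out gave 80 higher and 55 lower of 490 for FSK in WT, 34 and 41 of 478 for Ex-4 in WT, 12 and 44 of 490 for Ex-4 in the mutant, and 53 and 151 of 494 for the mutant baseline, and no call was lost for FSK in the mutant. The median log2 ratio of the listed genes was 0.03 for FSK in WT, -0.04 and -0.12 for Ex-4 in WT and mutant, 0.41 for FSK in the mutant and -0.55 for the mutant baseline. Dividing by the median ratio turned the last 2 splits, to 76 higher and 86 lower for FSK in the mutant and 94 higher and 66 lower for the mutant baseline, and gave 19 higher and 41 lower for Ex-4 in the mutant. The balance of higher and lower calls in these comparisons thus depended on the scaling. Some genes named below lie near the median, and some calls, such as Rock1, Rock2, Prkg1 and Ednra in the mutant baseline, are lost once the median is set to 1.

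**Figure D3:**
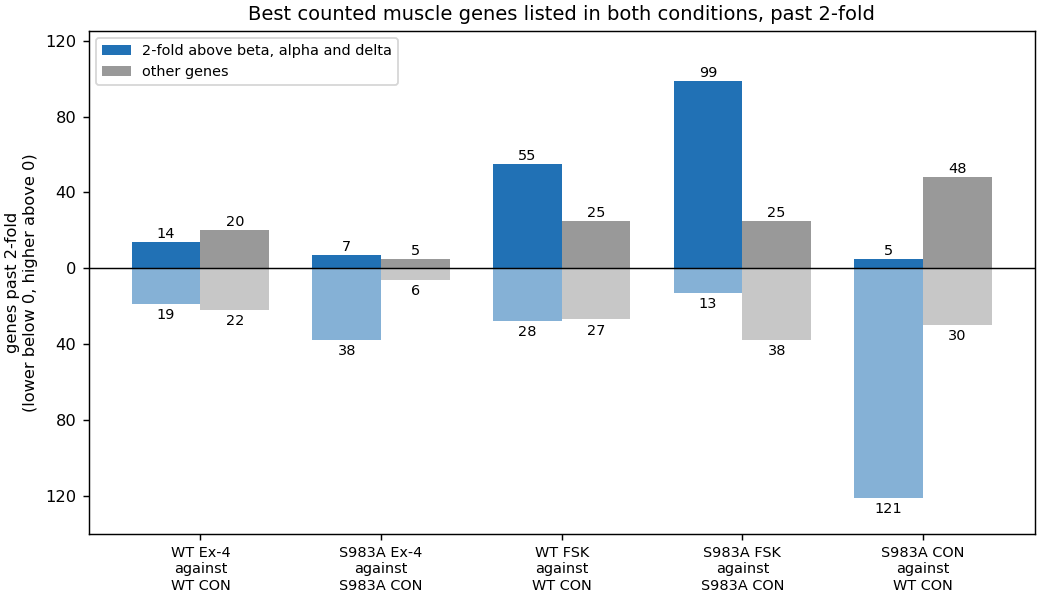
Number of the 500 best counted muscle genes, listed in both conditions, at least 2 times higher (above 0) or lower (below 0, paler) in each comparison, split into genes at least 2 times above beta, alpha and delta nuclei (blue) and other genes (grey). FSK in the mutant had 99 muscle-enriched genes higher and 13 lower, and the mutant baseline 5 higher and 121 lower.

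FSK against CON gave the most calls within a genotype, and many were shared by the genotypes, which have separate control columns. Among 490 best counted genes with an FSK ratio in both genotypes, 55 were at least 2 times higher in both. This is 68.8% of the 80 higher in WT and 45.5% of the 121 higher in the mutant. Another 17 were at least 2 times lower in both, 30.9% of 55 and 34% of 50, and 4 moved in opposite directions past 2-fold. Across these genes the log2 ratios of WT and mutant had a Pearson correlation of 0.56, a description over genes that share the same 4 columns. Of the 55 genes higher in both, 40 were muscle-enriched. That label rests on means that include the FSK columns, so high FSK levels could also bring a gene to it. Of the 52 of them with a ratio in beta nuclei, 5 (9.62%) were also past 2-fold in both genotypes there, among them Pde10a, Gnas, Zswim6 and Igf1r, and of 46 with a ratio in endothelial nuclei 2 (4.35%) were, among them Igfbp5. Over all of the 500 genes with a ratio in both genotypes, 21 of 466 (4.51%) were higher in both in beta nuclei and 4 of 450 (0.889%) in endothelial nuclei. Both shares, on 5 and 2 genes, were thus above those over all of the 500 genes. The 55 genes were picked on the muscle columns, where all are past 2-fold, so that fewer were past it in beta and endothelial nuclei follows in part from that choice.

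Acsl4 (chrX:141100840-141173789 in GRCm39, minus strand), which activates polyunsaturated fatty acids, was at 0.778 CP10K (2 counts) in WT CON, 1.13 (4) in WT Ex-4, 22.3 (108) in WT FSK, 0.813 (5) in mutant CON, 14.1 (123) in mutant FSK and 0.404 (2) in mutant Ex-4. Both FSK columns were far above the other 4, with ratios of 28.7 (7.75 to 240) in WT and 17.4 (7.26 to 54.5) in the mutant, while beta nuclei went from 0.544 to 0.737 in WT. Kcnk10 (chr12:98395696-98544569, minus strand), a background potassium channel, was at 0.778 (2 counts) in WT CON and 20.7 (100) in WT FSK, 0.488 (3) in mutant CON and 4.83 (42) in mutant FSK, with 0 and 1 counts in the Ex-4 columns. Its ratios were 26.6 (7.16 to 222) in WT and 9.90 (3.16 to 49.9) in the mutant. Slc7a11 (chr3:49846975-50398070, minus strand), the cystine and glutamate exchanger, had no count in WT CON and 91 counts (18.8) in WT FSK, at least 16.1-fold higher taking 3 counts as the limit, and 0.325 (2) in mutant CON and 2.99 (26) in mutant FSK, a ratio of 9.19 (2.30 to 79.9). Oxr1, an antioxidant gene, was among the 5 highest in WT alone, at 0.389 (1 count) and 7.24 (35), and was at 1.95 (12) and 2.64 (23) in the mutant. Gpcpd1, a glycerophosphocholine phosphodiesterase, was among the 5 highest in the mutant alone, with ratios of 2.13 in WT and 10.0 (4.11 to 31.9) in the mutant.

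Igfbp5 was the best counted of these genes. It was at 64.2 (165) in WT CON, 36.0 (127) in WT Ex-4 and 208 (1005) in WT FSK, and at 33.0 (203), 19.4 (96) and 119 (1038) in the mutant, with FSK ratios of 3.24 (2.74 to 3.84) and 3.62 (3.11 to 4.22). The FSK column was the highest of each genotype.

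Ednrb (chr14:104052053-104081900 in GRCm39, minus strand), the second endothelin receptor, was at 7.01 (18 counts) in WT CON, 2.55 (9) in WT Ex-4, 26.7 (129) in WT FSK, 0.163 (1) in mutant CON, 16.7 (145) in mutant FSK and 0.808 (4) in mutant Ex-4. The FSK ratio was 3.81 (2.32 to 6.63) in WT, and 103 in the mutant, where the control rested on 1 count and the interval began at 18.1. Endothelial nuclei had 9.31 in WT CON and 9.81 in WT FSK, and 2.26 and 11.4 in mutant CON and FSK. The transforming growth factor beta signal transducer Smad3 had ratios of 3.92 (1.86 to 9.50) and 3.57 (2.17 to 6.19), the chondroitin sulfate enzyme Csgalnact1 8.37 (4.12 to 19.8) and 5.20 (3.12 to 9.21), and the adhesion receptor Nectin1 9.83 (2.54 to 84.2) and 4.95 (1.93 to 16.2).

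CREB binds the cAMP response element TGACGTCA and its shorter core TGACG. Of the 55 genes higher in both genotypes 42 had a RefSeq promoter window, none held TGACGTCA on either strand, against 2.03% of 27025 genes, and 14 (33.3%) held the core, which lies within the full element, in at least 1 window, against 23.0% of these genes. Of the 17 genes lower in both, 11 had a window, 2 held the full element (18.2%) and 5 the core (45.5%). The presence of these letters says nothing of binding. The 250 bases before the start of Acsl4 (chrX:142390536-142390785 in GRCm38.p6, minus strand) and of Ednrb (chr14:103843702-103843951 in GRCm38.p6, minus strand) are shown in the direction of each gene as genes described above that hold the core, chosen after their values were seen, with the core in capitals, 119 and 203 bases before the start.
Acsl4: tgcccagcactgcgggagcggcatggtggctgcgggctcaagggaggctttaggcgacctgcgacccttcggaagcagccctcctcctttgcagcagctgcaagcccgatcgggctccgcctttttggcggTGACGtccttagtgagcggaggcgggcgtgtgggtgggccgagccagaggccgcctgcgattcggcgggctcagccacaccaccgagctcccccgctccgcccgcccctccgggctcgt
Ednrb: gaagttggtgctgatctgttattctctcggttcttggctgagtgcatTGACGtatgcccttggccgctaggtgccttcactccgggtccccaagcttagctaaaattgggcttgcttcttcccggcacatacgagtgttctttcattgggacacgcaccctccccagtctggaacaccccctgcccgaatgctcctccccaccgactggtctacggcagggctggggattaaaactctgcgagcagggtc

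**Figure D4:**
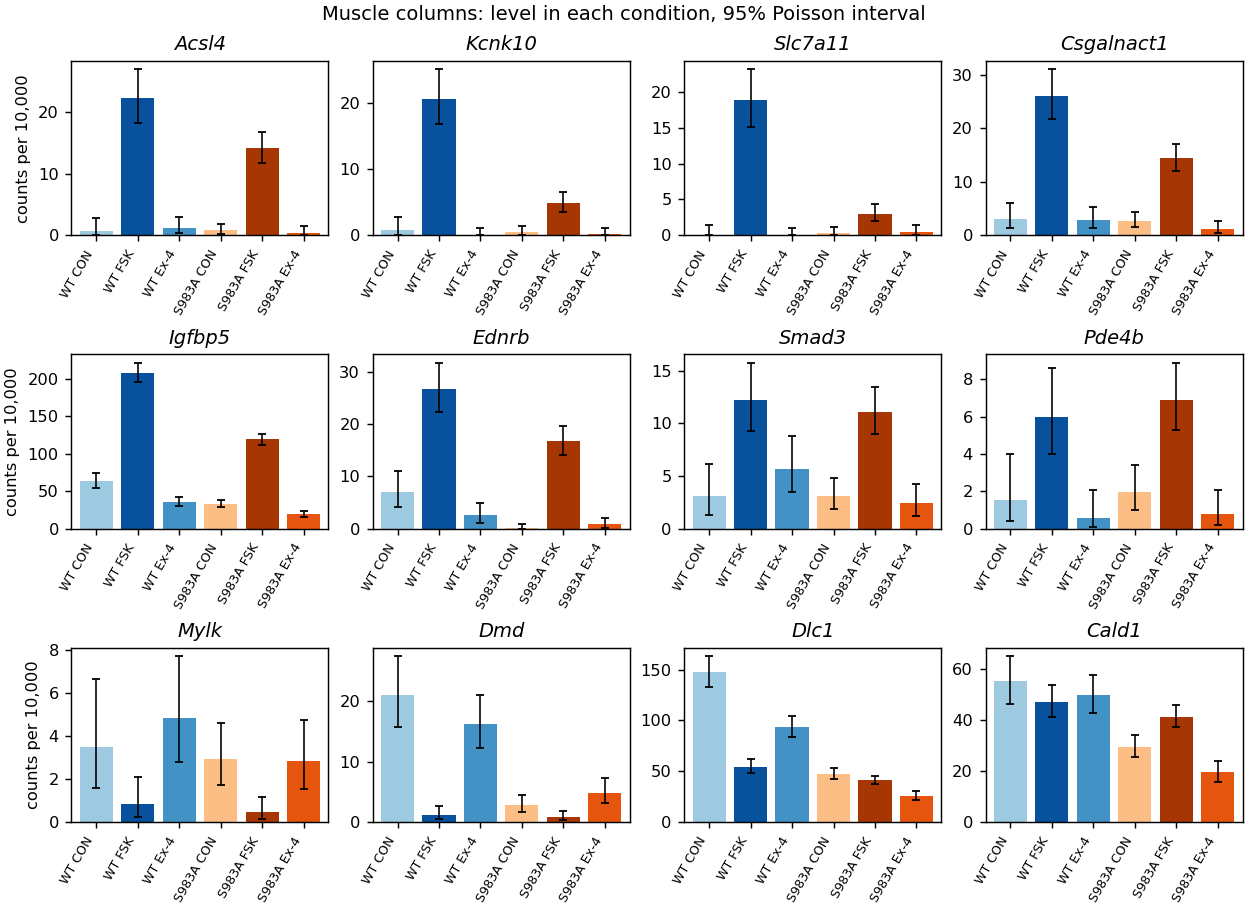
Level of 12 genes in the 6 muscle columns in counts per 10000, with exact 95% Poisson intervals, which cover counting error only. The first 8 are higher in both FSK columns than in CON of the same genotype, Mylk and Dmd are lower, Dlc1 is lower in WT FSK, and Cald1 lies between 19.6 and 55.3.

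Genes of cAMP signalling differed with FSK in a pattern that the genotypes shared in part. Of the cAMP pathway list, 6 of 13 members with a ratio were higher and 2 lower in WT, where 21% of 2868 genes listed in both conditions with over 3 counts in 1 column were higher and 14.1% lower. In the mutant 6 of 15 were higher and 4 lower, with 21.8% and 15.8% of 5094 genes. With the median set to 1 there were 5 higher and 4 lower in the mutant. Gnas, Adcy5, Pde4b, Pde4d and Pde10a were higher and Adcy3 lower in both genotypes. Pde3b was called higher and Creb1 lower in WT alone. Prkar2a was called higher, and Glp1r, Adcy6 and Adcy9 lower, in the mutant alone. Pde10a, which degrades cAMP and cGMP, was at 13.6 (35 counts) in WT CON and 75.5 (365) in WT FSK, and at 7.64 (47) and 67.7 (589) in the mutant. Its beta nuclei went from 30.9 to 107 in WT and from 22.5 to 106 in the mutant, so the muscle levels were below those of beta nuclei in all 6 conditions. Pde4b, a cAMP phosphodiesterase, had ratios of 3.85 (1.35 to 15.1) and 3.54 (1.88 to 7.22), and Pde4d, of the same family, was at 0.389 (1 count) and 13.6 (66) in WT and at 2.28 (14) and 5.63 (49) in the mutant. Gnas, the stimulatory G protein subunit, had ratios of 2.52 (0.839 to 10.2) and 2.68 (1.67 to 4.44), and Adcy5 stood on 1 to 9 counts. Adcy3, another adenylyl cyclase, went from 2.72 to 1.03 in WT and from 1.30 to 0.345 in the mutant, on 3 to 8 counts.

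Of the genes that cAMP is known to induce, 1 of 6 was higher in WT (Irs2, with 15 counts against 1) and 5 of 8 in the mutant, Nr4a1, Crem, Irs2, Hgsnat and Peak1, with Sik1 lower. Over all genes with a ratio, 21% were higher in WT and 21.8% in the mutant. Irs2, an insulin receptor substrate, had no count in mutant CON and 15 in mutant FSK, at least 3.54-fold higher. Peak1, a pseudokinase, went from 26.9 (69) to 40.3 (195) in WT and from 11.4 (70) to 22.9 (199) in the mutant, ratios of 1.5 and 2.01. After the median ratio was set to 1, 3 of the 8 members in the mutant, Crem, Irs2 and Hgsnat, were at least 2 times higher.

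In mural signalling 4 of 9 members were higher in WT FSK and none lower, Tgfb1, Tgfbr1, Smad3 and Ednrb. In mutant FSK 6 of 11 were higher, Tgfb2, Tgfb3, Tgfbr2, Smad3, Ednra and Ednrb, and Pdgfa was lower, and 3 remained higher after the median was set to 1. Only Smad3 and Ednrb were thus higher in both genotypes. Over all genes with a ratio, 21% were higher and 14.1% lower in WT, and 21.8% and 15.8% in the mutant. Of the muscle-enriched genes, 55 of 243 were higher and 28 lower in WT, and 99 of 253 higher and 13 lower in the mutant. Tgfbr1, the type I receptor of transforming growth factor beta, had a ratio of 3.06 (1.97 to 4.93) in WT and 1.25 (0.907 to 1.74) in the mutant, and the difference between the genotypes was not tested. The soluble guanylyl cyclase subunit Gucy1a1 went from 0.778 (2 counts) to 8.48 (41) in WT and from 0.488 (3) to 3.22 (28) in the mutant, while Gucy1b1 went from 3.11 to 4.76 and from 1.14 to 4.02. In the contractile list Mylk was lower in both, 9 against 4 counts in WT and 18 against 4 in the mutant, with ratios of 0.236 (0.0531 to 0.846) and 0.157 (0.0387 to 0.477). Cald1, Tpm1, Smtn and Myh11 had ratios from 0.565 to 1.06 in WT and from 0.864 to 1.51 in the mutant. Notch3, the Notch receptor of mural cells, went from 9.73 (25) to 1.03 (5) in WT and from 1.63 (10) to 0.115 (1) in the mutant. Of the pericyte list in the mutant, Abcc9, Gucy1a1 and Gucy1b1 were higher and Notch3 lower among 7, and with the median set to 1 Pdgfrb and Cspg4 were lower as well.

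Genes lower with FSK included structural ones. Dmd (chrX:81992474-84249747, plus strand), dystrophin, was at 21 (54 counts) in WT CON, 16.2 (57) in WT Ex-4 and 1.24 (6) in WT FSK, and at 2.76 (17), 4.85 (24) and 0.919 (8) in the mutant. Its FSK ratios were 0.0590 (0.0208 to 0.137) and 0.333 (0.124 to 0.814). Its relative Utrn, utrophin, had 0.280 (0.185 to 0.418) and 0.330 (0.237 to 0.456). Dlc1 went from 148 (379) to 54.6 (264) in WT, a ratio of 0.370 (0.315 to 0.434), and from 47.8 (294) to 41.1 (358) in the mutant, 0.861 (0.736 to 1.01). The sodium and calcium exchanger Slc8a1 and the catenin Ctnna3 had ratios of 0.0641 (0.0247 to 0.141) and 0.10 (0.0455 to 0.199) in WT, and 0.586 (0.346 to 0.987) and 0.678 (0.366 to 1.25) in the mutant. Trpc6, Col5a2 and Ano1 had counts in WT CON but were listed at 0 in WT FSK.

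The mitochondrial ribosomal RNAs mt-Rnr1 and mt-Rnr2 were at 0.127 (0.0373 to 0.345) and 0.197 (0.0850 to 0.419) of CON in WT FSK and at 0.0976 (0.0249 to 0.278) and 0.173 (0.0771 to 0.350) in mutant FSK. In the mutant 8 of 10 members of the ribosomal RNA linked and mitochondrial list were lower with FSK, where 15.8% of all genes with a ratio were. Among them were Rn18s-rs5, from 773 to 162 CP10K, and Gm19951, from 80.1 to 13.0. Beta nuclei of the same conditions had Rn18s-rs5 at 747 and 151. Rescaling the columns without this list gave 103 higher and 57 lower genes for FSK in the mutant.

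**Figure D5:**
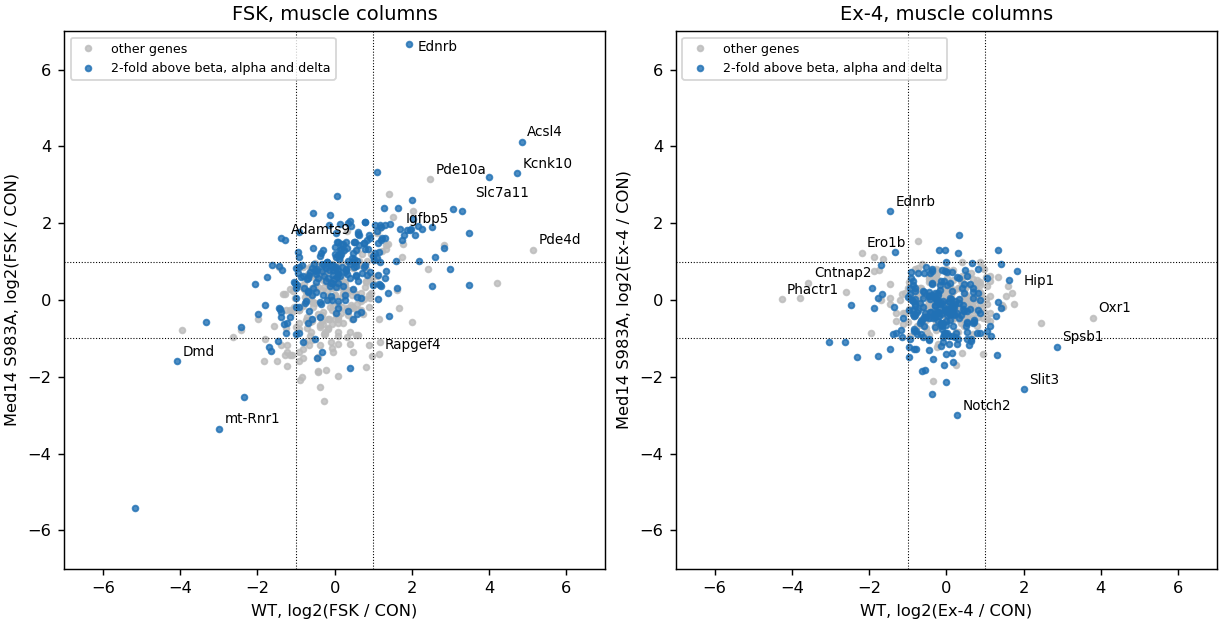
The log2 ratio of treatment to CON in WT (x axis) and in Med14 S983A (y axis) for best counted muscle genes with a ratio in both, for FSK (left, 490 genes) and Ex-4 (right, 478 genes); dotted lines mark 2-fold, blue points are muscle-enriched. FSK points stretch along the diagonal with 55 genes in the upper right and 17 in the lower left corner, and Ex-4 has 1 and 5 there.

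Among the best counted genes Ex-4 against CON called fewer than FSK, and few of them in both genotypes. Of 478 genes with a ratio in both, 1 was higher in both (Nectin1), 5 were lower in both (Adamts9, Zfp532, Pde4b, Runx2 and Rgs6) and 8 moved in opposite directions past 2-fold, and the log2 ratios of the genotypes had a Pearson correlation of -0.01. The receptor for Ex-4, Glp1r, had 33 counts over the 6 muscle columns, at 0 to 2.63 CP10K against 5.27 to 9.39 in beta nuclei, and belongs to the beta list whose summed level is given above.

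In WT Ex-4 the 5 genes with the highest ratios were Oxr1, from 0.389 (1 count) to 5.39 (19), Spsb1, from 0.389 (1) to 2.84 (10), the transcription factor Creb3l2, from 0.778 (2) to 4.25 (15), the guidance ligand Slit3, from 0.778 (2) to 3.12 (11), and the endocytic adaptor Hip1, from 2.72 (7) to 9.64 (34). Of these only Hip1 had more than 2 counts in WT CON, with a ratio of 3.54 (1.54 to 9.46), and it went from 3.58 (22) to 6.06 (30) in the mutant. In FSK-treated WT columns Oxr1, Spsb1, Creb3l2 and Slit3 stood at 7.24, 4.34, 4.14 and 3.31, so WT CON was the lowest of the 6 columns for these 4 genes, next to 0.808 (4 counts) in mutant Ex-4 for Slit3. Trpc6, Pakap.1 and Ano1 had counts in WT CON and were listed at 0 in WT Ex-4 as a whole. Among listed genes they were Phactr1, from 21.8 (56) to 1.13 (4), Sdk2, from 3.89 (10) to 0.284 (1), Cntnap2, from 10.1 (26) to no count, Runx2, from 2.34 (6) to 0.284 (1), and Adamts9, from 10.5 (27) to 1.70 (6). Phactr1, Sdk2 and Cntnap2 are abundant in beta nuclei (102, 17.0 and 48.0 in WT CON), and the summed beta list of the muscle columns was 6.62 in WT CON and 2.55 in WT Ex-4; its part in these differences was not tested. Runx2, a skeletal transcription factor, and Adamts9, a matrix protease, were at or under 0.0604 in beta nuclei of these conditions, and Egfr, the next muscle-enriched gene, had a ratio of 0.182 (0.0443 to 0.565).

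In mutant Ex-4 the highest ratios were Ednrb, 4 counts against 1, Gucy1a2, a guanylyl cyclase subunit, from 0.813 (5) to 2.63 (13), Ptprt, from 1.95 (12) to 5.66 (28), Pde4d, from 2.28 (14) to 5.86 (29), and Nectin1, from 0.813 (5) to 2.02 (10). The lowest were Tnc, Fgf2, Tbx3os1, Axl and Prrx1, all listed at 0 in mutant Ex-4 as a whole. Among listed genes they were Notch2, from 1.63 (10) to 0.202 (1), the fibronectin receptor subunit Itga5, from 6.66 (41) to 1.21 (6), Slit3, from 4.06 (25) to 0.808 (4), Ksr1 and Mkln1. Itga5 was the best counted of them, with a ratio of 0.182 (0.0631 to 0.431), against 0.781 (0.351 to 1.75) in WT. Of the muscle-enriched genes 7 of 243 were higher and 38 lower, against 5 and 6 of the 247 other best counted genes. With the median set to 1 there were 11 and 28 of the muscle-enriched genes, against 8 and 6 of the others. The summed beta list was 10.9 in mutant CON and 13.1 in mutant Ex-4.

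Of the genes that cAMP induces, 3 of 6 were higher in WT Ex-4 (Junb, Nr4a1 and Dgkg), where 19.7% of 2492 listed genes were higher and 14% lower, and in the mutant 2 of 5 were lower (Sik1 and Dgkg, with Sik1 alone after the median was set to 1) and none higher, with 18.1% and 17.1% of 4211. Of the contractile list none of 4 was past 2-fold in WT and Smtn was lower in the mutant. Cald1 had ratios of 0.903 (0.720 to 1.13) and 0.663 (0.513 to 0.853), and Igfbp5 0.561 (0.442 to 0.711) and 0.588 (0.456 to 0.753). The Ex-4 columns were thus the lowest of their genotype for Igfbp5, and the FSK columns the highest.

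Without treatment, many muscle-enriched genes stood lower in mutant CON than in WT CON. Of 247 muscle-enriched genes listed in both, 5 were higher and 121 lower in mutant CON, with a median log2 ratio of -1.0, whereas the other 247 best counted genes had 48 higher and 30 lower and a median of -0.04. The muscle-enriched label rests on means that include these 2 columns, so a gene could earn it through high WT levels, and the split is not independent of the levels compared. With the median of all set to 1, 13 of the muscle-enriched genes were higher and 53 lower. Over all 3701 genes listed in both with over 3 counts in 1 column, 16.8% were higher and 17.3% lower. Of the pericyte list, all 4 members with a ratio were lower: Abcc9, from 10.9 (28) to 1.79 (11), Notch3, from 9.73 (25) to 1.63 (10), Gucy1b1, from 3.11 (8) to 1.14 (7), and Ebf1, a mural transcription factor, from 61.1 (157) to 15.3 (94). Ebf1 had a ratio of 0.250 (0.192 to 0.325), and with the median set to 1 there were 3 of the 4. Pdgfrb, also on the pericyte list, went the other way, with counts in mutant CON and none in WT CON. It was not listed in WT CON and so is not among the members with a ratio.

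Of the contractile list Myh11 was lower, from 6.23 (16) to 1.46 (9), and Cald1, Tpm1 and Smtn had ratios of 0.535 (0.427 to 0.671), 0.577 (0.318 to 1.06) and 0.905 (0.441 to 1.97). Of mural signalling, Jag1, Tgfbr3, Ednra and Ednrb were lower among 9, and with the median set to 1 Jag1 and Ednrb were lower and Pdgfa higher. Of the 247 muscle-enriched genes 121 were lower, and 53 with the median set to 1. Of the genes that set contraction, Rock1, Rock2, Prkg1 and Pde3a were lower among 12, and with the median set to 1 there was 1 lower and 3 higher. Pde3a went from 46.7 (120) to 11.5 (71), a ratio of 0.247 (0.182 to 0.334), and was at 41.1 and 35.8 in WT Ex-4 and WT FSK and at 9.09 and 25.5 in the mutant, so that all WT columns were above all mutant columns. Prkg1, the cGMP-dependent kinase that relaxes smooth muscle, had 141 counts (54.9 CP10K) in WT CON and 123 counts in the deeper mutant CON column. Its ratio of CP10K was 0.364 (0.284 to 0.467). Cacna1c, the L-type calcium channel, went from 42.8 (110) to 36.7 (226).

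The 5 lowest ratios in mutant CON were those of Ednrb, 1 count against 18, the retinol dehydrogenase Rdh10, from 8.17 (21) to 0.650 (4), 2610307P16Rik, a noncoding RNA with 6 counts against 25, the histone deacetylase Hdac9, from 28.8 (74) to 3.09 (19), and Dmd, from 21 (54) to 2.76 (17). Ednrb and Rdh10 stood at 16.7 and 4.25 in mutant FSK, above mutant CON. The highest ratios among listed genes were Spsb1, 26 counts against 1, the splicing factor Rbm25, from 1.56 (4) to 12.2 (75), Chga, chromogranin A of endocrine granules, from 0.778 (2) to 5.85 (36), Peg3, from 2.34 (6) to 16.6 (102), and Gm19951, from 12.1 (31) to 80.1 (493). Pdgfrb and Tnc had counts in mutant CON and were listed at 0 in WT CON. In beta nuclei Rbm25, Chga, Peg3 and Gm19951 were also higher in mutant CON, at 13.8, 19.0, 66.5 and 57.2 against 5.05, 10.1, 33.2 and 8.21.

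The lower levels of muscle-enriched genes stood beside more RNA of 2 other kinds in the same column. The beta list was 10.9 CP10K in mutant CON against 6.62 in WT CON, and the alpha, delta and PP list 3.09 against no count. The ribosomal RNA linked and mitochondrial list was 1368 CP10K against 478, and 6 of its 10 members with a ratio were higher and none lower. Over all 3701 genes with a ratio 16.8% were higher and 17.3% lower. Rescaling without that list left 7 muscle-enriched genes higher and 105 lower of 245. The part of the endocrine RNA was not tested. The few muscle-enriched genes above 2-fold included Slit3, from 0.778 (2) to 4.06 (25), and Vegfa, the endothelial growth factor, from 5.84 (15) to 17.9 (110), which was also at 33.3 (161) in WT FSK. Vegfa in beta nuclei was at 5.92 in WT CON and 11.6 in mutant CON.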

How the data were processed

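Nuclei of cultured islets were profiled by combinatorial barcoding in 8 sublibraries, each holding all 6 conditions. The authors aligned reads to mm39 with split-pipe, removed nuclei with extreme counts or a high mitochondrial share, integrated them with Harmony, equalised the nuclei per sample and named cell types from cluster markers. The deposited values are natural log, ln(1 + 10000 × count / column total), for 17362 genes in 54 pooled columns, 0 of which were left unused. Counts were recovered as whole numbers (100% of values within 0.001, largest distance 6.39e-05), with column totals of 1522 to 3094377. The sources used here do not say if counts were pooled before or after the authors' normalization. Intervals are exact Poisson (levels), exact binomial (shares) and conditional exact binomial (ratios), at 95%, and cover counting error only. A count of 0 was set to 3 counts for a ratio.

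Columns were compared without a test, since each condition has 1 column. The genes named are the 4 markers, list members, the 20 largest muscle ratios among genes with at least 60 counts and, for each comparison, the 5 highest and 5 lowest ratios of the 500 best counted genes and 3 and 3 of the muscle-enriched genes. Other genes, among them Csgalnact1, Nectin1, Utrn, Dlc1, Slc8a1, Ctnna3, Itga5 and those named in place of genes listed at 0, were chosen after their values were seen. The members and lists were chosen with earlier results of these data known. Alternatives were a 3-fold threshold, log2(CP10K + 1), 250 genes, no filter, 2 scalings and muscle-enriched genes. Leaving out genes at 0 over a condition, asking for counting intervals apart and averaging over listed conditions were chosen after seeing the data. The recovery of counts and the code that makes the calls were checked on simulated data, which gives no test of a difference between single columns. Some genes that this rule names are not reported here. Gene positions are from GENCODE M39 (GRCm39). Computations ran in Python 3.11.15 with scipy 1.17.1, pandas 2.3.3, numpy 2.4.6 and matplotlib 3.10.9.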

Additional observations from a re-analysis of the deposited data

Results flagged for a closer look

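The genes here moved past 2-fold in opposite directions in WT and Med14 S983A under the same treatment, in the 500 best counted genes. With 1 column for each condition the difference between the genotypes was not tested. With FSK, Adamts9 had a ratio of 0.413 in WT and 2.96 in the mutant, and Rtn4 had 0.384 and 3.06. Rbm25 had 2.26 and 0.472 with FSK, and Rapgef4 had 2.23 and 0.377, and neither is muscle-enriched. With Ex-4, the muscle-enriched genes Slit3 (4.01 and 0.199), Spsb1 (7.29 and 0.430) and Zswim6 (2.48 and 0.373) were higher in WT and lower in the mutant, and Ednrb (0.364 and 4.97) and Kcnab1 (0.398 and 2.36) were lower in WT and higher in the mutant. Nalf1 (0.324 and 2.10), Auts2 (0.273 and 2.16) and Ero1b (0.219 and 2.34) were also lower in WT and higher in the mutant with Ex-4 and are not muscle-enriched, beside a summed beta list in the muscle columns of 6.62 and 2.55 CP10K in WT CON and WT Ex-4 and of 10.9 and 13.1 in the mutant. Slit3 and Spsb1 rested on 2 and 1 counts in WT CON, and Ednrb on 1 count in mutant CON.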

How the results depend on the processing

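Counts of genes called in a direction moved by over 1.5 times under settings that change which genes enter or how far they must differ, and the order below is WT Ex-4, mutant Ex-4, WT FSK, mutant FSK and mutant CON. At 3-fold, 9, 2, 40, 56 and 34 genes were higher and 33, 17, 25, 18 and 53 lower. Among the 250 best counted genes, 11, 5, 47, 73 and 29 were higher and 26, 24, 28, 25 and 86 lower. With no filter, 491, 762, 603, 1128 and 637 were higher and 380, 760, 429, 811 and 641 lower. With counting intervals apart, which was chosen after seeing the data, 7, 6, 50, 108 and 31 were higher and 17, 13, 32, 44 and 97 lower, so the Ex-4 calls rested most on few counts. On log2(CP10K + 1), 18 and 4 were higher in the Ex-4 comparisons and 24 lower in mutant Ex-4. Among muscle-enriched genes alone, 14, 7 and 9 were higher for WT Ex-4, mutant Ex-4 and mutant CON, and 31, 34 and 13 lower for WT Ex-4, WT FSK and mutant FSK. With the median ratio set to 1, 19, 76 and 94 were higher for mutant Ex-4, mutant FSK and mutant CON, and 86 and 66 lower for the last 2. These settings change the number of genes, the threshold or the centre by construction. Rescaling without the ribosomal RNA linked and mitochondrial list, and dropping genes at 0 throughout a condition, kept all 10 counts within 1.5 times.

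The 38 genes set apart became 96 at 2-fold and 67 with at least 20 counts, 45 with summed counts, 38 over listed conditions and 30 to 41 leaving out each condition. The stellate list ran from 1 to 2 members highest in muscle and the basement membrane and anchoring list from 0 to 3 leaving out each condition, with 3 for the latter on summed counts. Without ribosomal RNA linked and mitochondrial genes the muscle share was 0.625% and 0.890% in WT CON and WT Ex-4, and 1.61% and 1.37% in mutant CON and mutant Ex-4. Depth limited genes with few counts, above all in WT CON, and no paired analysis was possible because each condition has 1 column.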
